A study of Mus musculus with 12 samples.

Results

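The response to lipopolysaccharide (LPS) of Ing4 knockout macrophages was described across all genes from 4 of the 12 RNA-seq libraries of the study. The members were chosen by label: the 2 Ing4-/- libraries given LPS at 100 ng/ml and taken after 3 hours were compared with the 2 Ing4-/- libraries left untreated. The 4 matching wild-type libraries (2 untreated, 2 with the same LPS treatment) entered the same model and served for comparison, and 4 libraries of a Socs1-/- line were used only in alternative fits. All cells were RAW264.7, a mouse macrophage-like line that grew from a tumour induced by a leukaemia virus, kept in the same serum-containing medium. The table held 54232 genes, of which 12529 had enough counts to be tested. How the Ing4 gene was disrupted, and whether the line is 1 clone or several, is left unstated by the labels and notes at hand, so the loss of Ing4 and any other difference between the lines cannot be told apart. The labels do not say that the replicates came from separate cultures, so the p-values measure the spread between these libraries, which may be technical.

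LPS, a component of the outer membrane of Gram-negative bacteria, is handed by CD14 to the receptor TLR4. The adaptor MYD88 then starts the NF-kB and MAP kinase cascades, which switch on cytokine genes within minutes to hours, and the adaptor TRIF starts a second wave in which IRF3 induces interferon-beta, whose receptor signals through JAK kinases and STAT factors to the interferon-stimulated genes. The response brakes itself: newly made IkB proteins, the ubiquitin editor A20, SOCS proteins and RNA-decay factors limit it. ING4 is a small nuclear protein with a PHD finger that reads trimethylated lysine on histone H3 and is a subunit of the HBO1 histone acetyltransferase complex, and in macrophages it has been described as a restraint on NF-kB target genes.

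The 4 knockout libraries held the RNA of macrophage-like cells. All 18 macrophage markers examined were detected, and their summed level was 19500.5 to 29968 CPM (the counts of a gene scaled to the same library size in all libraries) without LPS and 20901 to 29818 CPM with LPS. All 12 fibroblast, epithelial and erythroid markers were at 0 counts in every knockout library. So were 6 of 10 neutrophil markers, 9 of 13 T, B and NK cell markers and 3 of 8 dendritic cell markers. The other members of the neutrophil, lymphocyte and dendritic cell lists had counts in the knockout libraries. The summed neutrophil markers were 0.684 to 3.16 CPM without LPS and 1.40 to 3.26 CPM with LPS. The summed lymphocyte markers were 2.52 to 3.48 CPM without LPS and 7.23 to 9.07 CPM with LPS, with Lck at 7.09 and 8.85 CPM of them. Those of dendritic cells were 0.727 to 1.31 CPM and 2.19 to 3.42 CPM. The 1 lymphocyte marker with enough counts to be tested was called higher, and so was 1 of 3 tested dendritic cell markers. The 1 tested neutrophil marker was not called. The part of other cells in the results was not tested beyond these levels. In bulk RNA, fewer cells of a type and less RNA per cell cannot be told apart. The 8 libraries held 19923854 to 23816105 counts each. On a principal component analysis the first component (62.3% of the variance) separated LPS from untreated libraries and the second (19.6%) separated the genotypes.

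The counts of Ing4 itself did not check the knockout label. The gene (chromosome 6, 125039760 to 125049265, plus strand, GRCm38) had 6 and 29 counts in the untreated knockout libraries and 6 and 10 with LPS, against 10 and 5, and 6 and 2, in wild type. The knockout libraries were thus not lower than wild type. Gm44597, a transcript annotated on the same strand over 99.4% of the gene, had 0 to 5 counts in the knockout libraries, and an antisense gene, 4930557K07Rik, spans all of it. Reads cannot be assigned to a deleted part from gene counts. LPS did not pass the test for Ing4 in the knockout (log2 change -0.93, adjusted p = 0.486, edgeR).

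In the Ing4 knockout, LPS changed 2632 of the 12529 tested genes (21.0%), 1415 upward (11.3%) and 1217 downward (9.71%). Calls were made at a Benjamini-Hochberg adjusted p of 0.05 in edgeR's quasi-likelihood test. These 3 shares are the background for the counts of every gene list below. The rises were the larger changes: among genes called higher the median log2 change was 1.53, and 366 exceeded 3, whereas among genes called lower the median was -1.10 and 40 were below -3. All 2632 had both LPS libraries on the same side of both untreated libraries, and so did 58.0% of all tested genes (7273), so that this separation says little by itself. The genes called higher took 8.60% and 8.66% of all counts in the untreated libraries and 25% and 25.1% with LPS, and the genes called lower went from 8.15% and 8.37% to 2.97% and 3.28%. Of the called genes 1279 of the higher and 1183 of the lower were protein-coding, and 27 and 9 were long intergenic RNAs. With upper-quartile scaling, which moved the median of all genes by -0.14, the split was 1160 higher and 1749 lower, so that 39.9% of the calls were rises in place of 53.8%. Without the first untreated knockout library 871 genes were higher and 800 lower, without the second untreated one 722 were lower, and without the first LPS library 650 were lower. A fit to all 12 libraries called 604 higher and 420 lower. Of the 160 genes named in the text that were called, 43 were not called in that fit, and 6 were not in a fit to the 4 knockout libraries alone.

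**Figure D1:**
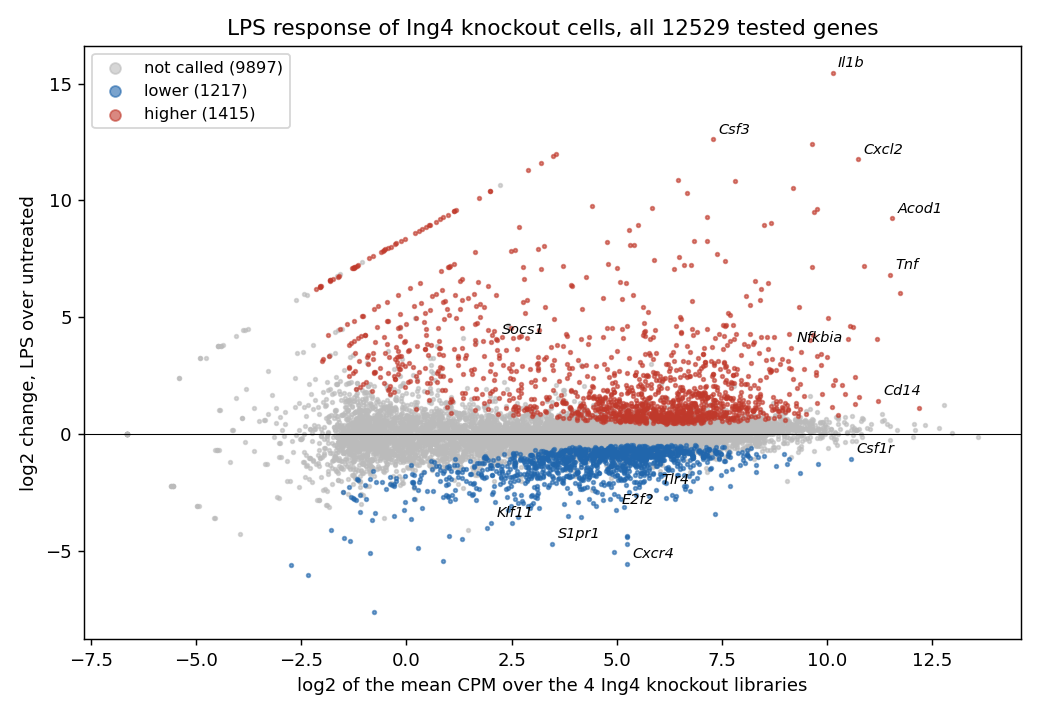
Log2 change with LPS (vertical axis) against the log2 of the mean CPM over the 4 knockout libraries (horizontal axis) for the 12529 tested genes, with 1415 called higher in red, 1217 called lower in blue and the rest in grey. The rises reach further from 0 than the falls. The straight upper edge on the left is made of genes with 0 counts without LPS, whose fitted change rests on a small added count.

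Promoters of 5 genes that rose are shown because they hold the sequence elements through which NF-kB (kB sites) and interferon signalling (interferon-stimulated response elements, ISRE) are known to act. Each line runs 5' to 3' from 250 bases before the RefSeq start site (build GRCm38.p6) to the base before it. Capitals mark a match on either strand to the kB consensus or to the ISRE core (GAAA, any 2 bases, GAAA). The kB consensus was GGG, then A or G, any 2 bases, C or T at 2 positions, and CC.
Cxcl10, chr5:92348890-92349139, minus strand: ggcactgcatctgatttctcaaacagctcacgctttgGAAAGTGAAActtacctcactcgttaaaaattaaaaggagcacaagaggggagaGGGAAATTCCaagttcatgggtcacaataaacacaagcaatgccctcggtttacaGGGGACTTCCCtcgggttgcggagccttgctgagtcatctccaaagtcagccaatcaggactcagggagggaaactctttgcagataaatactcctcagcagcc
Cxcl2, chr5:90903649-90903898, plus strand: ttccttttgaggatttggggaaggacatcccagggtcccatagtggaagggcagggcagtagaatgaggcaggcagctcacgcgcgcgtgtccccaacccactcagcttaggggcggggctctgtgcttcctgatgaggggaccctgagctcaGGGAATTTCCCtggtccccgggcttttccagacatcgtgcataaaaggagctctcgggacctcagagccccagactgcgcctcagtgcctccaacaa
Il6, chr5:30012864-30013113, plus strand: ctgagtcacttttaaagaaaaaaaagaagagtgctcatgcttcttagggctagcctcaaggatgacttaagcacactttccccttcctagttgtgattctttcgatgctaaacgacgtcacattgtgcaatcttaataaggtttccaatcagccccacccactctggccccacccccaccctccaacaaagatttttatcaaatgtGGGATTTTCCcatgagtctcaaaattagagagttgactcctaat
Ifit1, chr19:34640639-34640888, plus strand: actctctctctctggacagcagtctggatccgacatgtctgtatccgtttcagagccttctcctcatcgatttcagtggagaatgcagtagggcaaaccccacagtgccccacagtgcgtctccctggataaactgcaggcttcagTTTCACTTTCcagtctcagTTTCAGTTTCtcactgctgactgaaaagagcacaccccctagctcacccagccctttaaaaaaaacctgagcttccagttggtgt
Isg15, chr4:156200819-156201068, minus strand: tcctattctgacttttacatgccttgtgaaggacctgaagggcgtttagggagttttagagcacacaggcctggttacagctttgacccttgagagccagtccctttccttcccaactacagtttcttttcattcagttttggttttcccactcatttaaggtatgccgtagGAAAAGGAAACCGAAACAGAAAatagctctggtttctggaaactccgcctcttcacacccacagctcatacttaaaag
The kB match of Il6 began 44 bases before the start site, those of Cxcl2 lay at -97 and -96 and overlap by all but 1 base, and Cxcl10 had 1 at -159, an overlapping pair at -104 and -103 and an ISRE match at -213. Ifit1 had ISRE matches at -104 and -85, and Isg15 had 3 that overlap, at -78, -72 and -66. A match is a description of letters and no evidence of binding.

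The kB consensus, the ISRE core, an AP-1 site and a TATA box were counted in all 300-base promoter windows of the reference. Windows ran from 250 bases before to 50 after each start, and both strands were searched. RefSeq windows were found by symbol for 9205 of the 12529 tested genes. The kB consensus stood in 8.46% of all 32851 windows, 10.3% of those of tested genes, 13.6% of those of genes called higher in the Ing4 knockout, 15.7% of those with a log2 rise over 3 and 10.7% of those called lower. The ISRE core stood in 3.44% of all windows, 3.36% for tested genes, 7.39% for genes called higher, 18.7% for log2 rises over 3 and 1.92% for genes called lower. The AP-1 site TGANTCA was in 7.81%, 5.19%, 8.19%, 17% and 4.56% of the same sets, and the TATA box TATAAA in 13.6%, 7.20%, 11.1%, 19.7% and 5.44%. Among gene families, the kB consensus was in 8 of 14 windows of the NF-kB and IkB genes and in 5 of 13 of the chemokines, and the ISRE core in 26 of 58 windows of type I interferon-stimulated genes and in 9 of 11 of the interferon-inducible GTPases. A gene with several start sites has several windows, so these counts are not independent.

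Cytokines rose together. Of 35 listed cytokines and growth factors 29 were tested. Of these 24 were higher and 0 lower, against 11.3% higher among all tested genes. Their median log2 change was 6.57, or 5.66 with the 5 genes at 0 counts set to their lower bound. Genes near 0 counts without LPS passed the count filter through the libraries where they were high and could only be called higher. The share of such lists, here and below, is therefore partly set by the filter. Il1b, which encodes the fever cytokine interleukin-1 beta (chromosome 2, 129364570 to 129371139), stood at 0.0427 and 0.0452 CPM without LPS and at 2345 and 2137 CPM with it. That is 1 count in each untreated library, and the raw ratio was 51176 with a counting interval of 14167 to 422586 (95%, exact). Tnf (chromosome 17, 35199381 to 35202007), the tumour necrosis factor gene, was already expressed at 58.1 and 43.4 CPM and reached 7816 and 3632 CPM, a change of 6.82 ± 0.485 on the log2 scale (± standard error, as throughout; adjusted p = 0.000127). The first LPS library was the higher of the 2, and both lay far above the untreated ones.

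Several cytokines went from few or no counts to a measurable level. Il6, whose product drives the acute-phase response, had 0 counts in both untreated libraries and 39.0 and 7.87 CPM with LPS, at least 374-fold higher. Its spread between the LPS libraries was wide, and it still passed the test (adjusted p = 0.00666). Il1a, the other interleukin-1 agonist, went from 0.0427 and 0.543 to 771 and 2408 CPM (log2 12.41, adjusted p = 0.000251). Csf3, the granulocyte colony-stimulating factor, had 2 untreated counts in all and rose to 421 and 204 CPM, a raw ratio of 7297 (2020 to 60257). Lif, a cytokine of the interleukin-6 family, went from 0.128 and 0.362 to 484 and 415 CPM. Il27, a regulator of T cells, went from 0.128 and 0.181 to 254 and 156 CPM. The anti-inflammatory Il10 was low and uneven, at 0 and 0.271 CPM without LPS and 3.73 and 23.8 CPM with it (log2 6.63, adjusted p = 0.0164), and its call was lost without the first untreated library (adjusted p = 0.0932) or the second (0.0517). Csf2, for granulocyte-macrophage colony-stimulating factor, did not pass the test: its 2 LPS libraries stood at 18.2 and 0.597 CPM over 0 counts (adjusted p = 0.0679), and Il18 at 16.7 and 23.3 over 7.27 and 7.55 CPM did not pass either (adjusted p = 0.0914).

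Of 24 listed chemokines, the proteins that draw in neutrophils, monocytes and lymphocytes, 19 were tested. Of these 15 were higher and 0 lower, with a median log2 change of 7.14 (5.85 with 4 genes at their bounds). As among the cytokines, members near 0 counts without LPS could only be called higher. Ccl3 gained most CPM of all genes named, from 129 and 75.7 to 8311 and 5166 CPM (log2 6.04 ± 0.489, adjusted p = 0.000201). Its neighbour on chromosome 11, Ccl4, went from 33.9 and 17.5 to 4432 and 3053 CPM (log2 7.19). Ccl9 had the highest untreated level, 226 and 307 CPM, and rose to 3389 and 5417 CPM (log2 4.04). Cxcl2, a neutrophil attractant whose promoter is printed above, went from 0.769 and 1.18 to 4767 and 2008 CPM (log2 11.76 ± 0.720, adjusted p = 6.91e-05). In all 4 genes the LPS libraries lay far above the untreated ones, and which LPS library was the higher differed between genes. Cxcl10, an interferon-responsive attractant of T cells, rose from 3.21 and 1.27 to 2076 and 1190 CPM (log2 9.50). Ccl5 reached 1194 and 1143 CPM from 1.33 and 0.226, and Ccl22 reached 234 and 327 CPM from 0.0427 and 0.859. Ccl6, at 3.92 and 7.87 over 0.556 and 2.53 CPM, did not pass the test (adjusted p = 0.117), and neither did Ccl12 and Cxcl14.

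**Figure D2:**
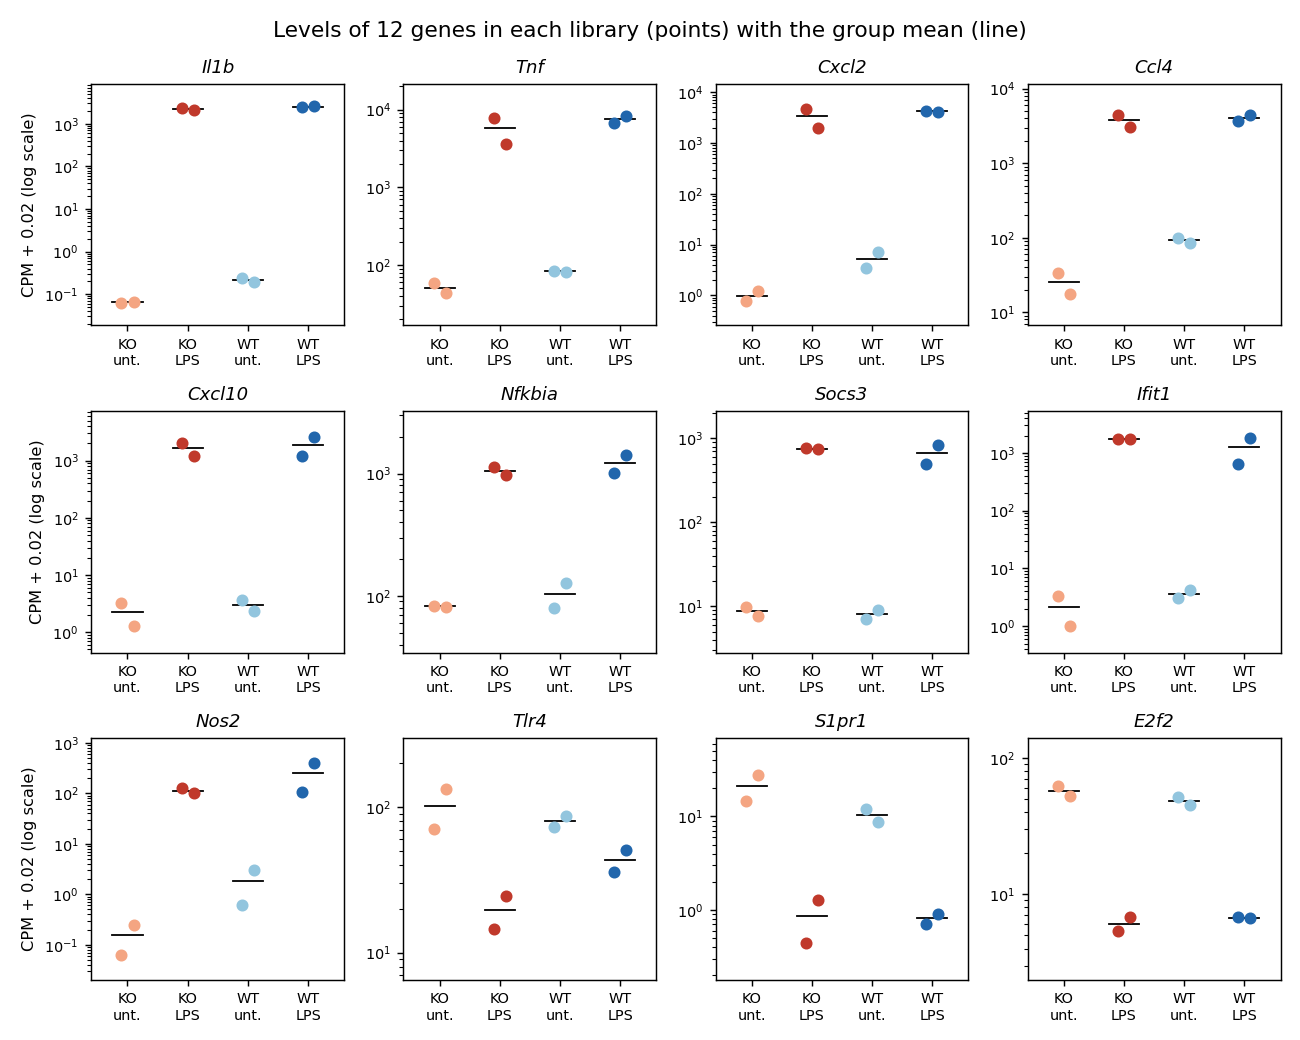
CPM (plus 0.02, logarithmic axis) of 12 genes in each of the 8 libraries, grouped as Ing4 knockout (KO) and wild type (WT), untreated (unt.) or with LPS, with a line at each group mean. Il1b, Tnf, Cxcl2, Ccl4, Cxcl10, Nfkbia, Socs3, Ifit1 and Nos2 are higher with LPS in both genotypes, and Tlr4, S1pr1 and E2f2 are lower.

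The receptor side moved both ways. Of 16 tested Toll-like receptors and LPS co-receptors 5 were higher and 3 lower (50% called, against 21.0% of all tested genes). Tlr4 itself, the LPS receptor, fell from 70.8 and 133 CPM to 14.5 and 24.5 CPM (log2 -2.39), and the nucleic-acid sensor Tlr13 fell from 125 and 238 to 24.6 and 42.4 CPM (log2 -2.44 ± 0.376, adjusted p = 0.00356). The lipopeptide receptor Tlr2 rose from 403 and 449 to 1386 and 2264 CPM (log2 2.10 ± 0.269, adjusted p = 0.00132), and its partner Tlr1 rose from 16.8 and 18.5 to 81.8 and 65.2 CPM. Cd14, which hands LPS to the receptor, was among the most abundant receptor RNAs without LPS, at 1218 and 1342 CPM, and rose to 3499 and 3396 CPM (log2 1.43 ± 0.227, adjusted p = 0.00358). Tlr7 stood at 158 and 165 CPM with LPS against 204 and 223 (adjusted p = 0.194).

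Of 28 cytokine and chemokine receptors 8 were higher and 6 lower (50% called, against 21.0% of all tested genes). Tnfrsf1b, the second TNF receptor, rose from 74.2 and 105 to 1255 and 1668 CPM (log2 4.02), and the death receptor gene Fas rose from 5.13 and 3.16 to 237 and 193 CPM (log2 5.69). Ccrl2, an atypical chemoattractant receptor, rose from 1.41 and 1.45 to 218 and 217 CPM. Il10ra, a subunit of the interleukin-10 receptor, rose by 1.58 on the log2 scale. The interleukin-6 receptor gene Il6ra fell by 1.77 and the TGF-beta receptor gene Tgfbr2 by 1.5 on the log2 scale. Among 38 adaptors and kinases below the receptors 14 were higher and 1 lower, with a median log2 change of 0.41. The ubiquitin ligase gene Peli1 rose from 26.0 and 30.1 to 564 and 536 CPM (log2 4.29 ± 0.185, adjusted p = 2.79e-05). The kinase genes Ripk2, Ikbke, Map3k8 and Irak2 rose by log2 3.66, 3.93, 2.38 and 1.86. Irak4, the kinase that binds MYD88 first, was at 19.0 and 20.3 CPM against 26.2 and 33.1 and missed the threshold (adjusted p = 0.0585).

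NF-kB factors and their inhibitors were higher almost without exception: 11 of 12 were called higher, and the remaining gene was Rela, the main activating subunit (67.6 and 56.0 CPM without LPS, 79.7 and 87.5 with it, adjusted p = 0.0829). Nfkbia, the gene of the classical inhibitor IkB-alpha, went from 82.0 and 81.7 to 1136 and 975 CPM (log2 3.69 ± 0.305, adjusted p = 0.000217). Nfkbiz, a nuclear IkB that co-activates secondary response genes, went from 6.54 and 6.60 to 788 and 442 CPM (log2 6.55 ± 0.348, adjusted p = 5.96e-05). Nfkb1, Rel, Nfkbib and Nfkbid rose by log2 2.78, 2.23, 2.44 and 2.42. The LPS replicates lay close together for Nfkbia and further apart for Nfkbiz.

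Some brakes of the response rose and others fell or were not called. Of 30 feedback regulators of TLR and TNF signalling 12 were higher and 4 lower, and 14 were not called. Tnfaip3, which encodes A20, went from 12.7 and 12.4 to 693 and 637 CPM (log2 5.73 ± 0.312, adjusted p = 6.03e-05), and its partner Tnip1 from 109 and 107 to 608 and 806 CPM (log2 2.71). Traf1 and Birc3, adaptor and ubiquitin ligase of the TNF receptor complexes, rose by log2 5.52 and 2.55. Inpp5d, which encodes the lipid phosphatase SHIP1, fell from 244 and 310 to 67.8 and 95.1 CPM (log2 -1.77 ± 0.231, adjusted p = 0.00145). Among 15 factors of cytokine mRNA decay 8 were higher (5 without the first untreated library) and 2 lower. The RNase gene Zc3h12a, for regnase-1, moved with little spread, from 11.2 and 12.4 to 411 and 394 CPM (log2 5.09 ± 0.183, adjusted p = 1.23e-05). Zfp36, for tristetraprolin, which destabilises the Tnf mRNA, rose by log2 3.85 to 555 and 417 CPM, while its relative Zfp36l2 fell from 123 and 204 to 19.5 and 45.1 CPM (log2 -2.34). Of 12 dual-specificity MAP kinase phosphatases 4 were higher and 0 lower, namely Dusp1, Dusp2, Dusp5 and Dusp16. Dusp1, at 6.33 and 16.5 CPM without LPS and 67.9 and 143 with it, was no longer called without the second LPS library (adjusted p = 0.0621) or the first untreated one (0.0651).

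The AP-1 and early response lists held more genes called higher than lower. Of 16 AP-1 and small MAF genes 9 were higher and 1 lower. Maff, a small MAF factor, rose from 2.39 and 2.40 to 23.4 and 31.3 CPM (log2 3.51), Junb from 96.5 and 130 to 560 and 565 CPM (log2 2.31), and Atf3, a repressor of cytokine genes, from 43.8 and 25.5 to 376 and 233 CPM (log2 3.14 ± 0.376, adjusted p = 0.00104). The gene called lower was Jun (log2 -2.05), named here after its value was seen. Of 25 early response genes 14 were higher and 0 lower. Myc, the growth regulator, rose from 3.03 and 10.4 to 163 and 166 CPM (log2 4.62), and Gadd45b, a stress gene that shields cells from JNK-driven death, from 9.45 and 7.73 to 161 and 189 CPM (log2 4.35). Ier3 and Cebpd rose by log2 4.25 and 3.46. In these 2 lists 6 AP-1 and small MAF genes and 11 early response genes were not called. Fos (log2 0.48, adjusted p = 0.754), Egr1 (1.51, 0.326) and Nr4a1 (-1.29, 0.170) were among them. The Kruppel-like factors split, with 3 of 10 higher and 4 lower. Klf7 rose from 23.9 and 22 to 183 and 136 CPM, Klf11 fell from 5.77 and 9.31 to 0.326 and 0.760 CPM (log2 -3.80 ± 0.482, adjusted p = 0.00124), and Klf9 and Klf13 fell by 1.66 and 1.40 on the log2 scale.

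Several genes of the interferon arm rose. Ifnb1, the gene of interferon-beta, had 2 counts in all without LPS and stood at 14.7 and 8.90 CPM with LPS, a raw ratio of 274 (75.5 to 2269, adjusted p = 0.000279). Of 23 interferon, receptor and JAK-STAT genes 9 were higher, 2 were lower and 12 were not called. Stat2, a transcription factor of the interferon pathway, went from 26.3 and 25 to 202 and 207 CPM (log2 3.00). Jak2, the gene of a kinase through which cytokine receptors signal, and Pim1, a kinase gene downstream of STAT factors, rose by log2 2.96 and 4.66. Pias3, an inhibitor of STAT3, fell by 1.33 on the log2 scale. Of 7 SOCS genes, whose products block JAK kinases and cytokine receptors, 5 were higher, and 3 without the first LPS library or either untreated one. Socs3 rose from 9.79 and 7.55 to 772 and 744 CPM (log2 6.45 ± 0.340, adjusted p = 5.96e-05), Cish from 0 counts to 21.4 and 23.1 CPM, at least 336-fold, and Socs1 from 0.513 and 0.497 to 8.63 and 8.04 CPM (log2 4.03 ± 0.401, adjusted p = 0.000469). Of 11 interferon regulatory factors 5 were higher (3 without the first untreated library) and 1 lower. Irf1 rose from 18.6 and 15.6 to 172 and 218 CPM and Irf7 from 13.8 and 4.57 to 251 and 171 CPM, and Irf9 rose by log2 2.10.

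Nearly all interferon-stimulated genes of the list were higher. Of 61 tested members of the type I list 59 were higher and 0 lower, against the 11.3% of all tested genes, with a median log2 change of 3.85. In a fit to all 12 libraries, which shares its estimate of the spread with the Socs1-/- line, 8 of them were called, and in the fit without 1 library of that line 59 were. Their mean log2(CPM + 1) was 3.90 and 3.50 in the untreated knockout libraries and 7.48 and 7.45 with LPS. Parp14, an ADP-ribosyltransferase, rose from 32.2 and 25.2 to 1274 and 1234 CPM (log2 5.45 ± 0.336, adjusted p = 6.91e-05). Slfn2, Slfn5 and Slfn8 of the Schlafen family rose by log2 3.36, 4.68 and 4.11, and the antibody receptor Trim21 went from 8.46 and 9.36 to 99.3 and 99.2 CPM. Ifit1, which binds viral RNA lacking 2'-O methylation and whose promoter is printed above, rose from 3.29 and 0.995 to 1723 and 1749 CPM (log2 9.65 ± 0.800, adjusted p = 0.000274). The LPS libraries of Parp14, Trim21 and Ifit1 lay close to each other. Ifitm3, an inhibitor of virus entry, was already abundant without LPS, at 625 and 343 CPM, and its rise to 1215 and 723 CPM missed the threshold (adjusted p = 0.0717). Samhd1, a nucleotide hydrolase, stood at 180 and 162 CPM over 122 and 120 (adjusted p = 0.342).

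The interferon-inducible GTPases, which attack the vacuoles of intracellular microbes, rose in 13 of 14 tested members with 0 lower and a median log2 change of 5.53 (3 members were called in the fit to all 12 libraries). Gbp5 went from 0.171 and 0 to 134 and 216 CPM, Gbp2 from 0.171 and 0.181 to 67.4 and 87.9 CPM (log2 8.74 ± 0.972, adjusted p = 0.00107) and Gbp3 from 0.684 and 0.633 to 88.9 and 145 CPM. Irgm1 was expressed before treatment and rose from 43.2 and 30.1 to 729 and 577 CPM (log2 4.16). Members of the Gbp, Slfn and H2 families are similar in sequence, so reads shared between copies make their single values uncertain. MHC class I and peptide-loading genes moved less: 10 of 24 were higher and 0 lower, with a median of 0.71. Leaving out the first or second LPS library left 2 and 5 of these calls, and leaving out the first or second untreated one 4 and 1, and the fit to all 12 libraries called 0. Tapbp, which holds class I molecules at the peptide transporter, rose from 176 and 143 to 532 and 507 CPM (log2 1.71 ± 0.261, adjusted p = 0.00302). The transporter gene Tap1 rose by log2 2.37 to 144 and 130 CPM, but was not called when the first LPS library (adjusted p = 0.0598), the first untreated one (0.0633) or the second untreated one (0.0799) was left out. Tap2, at 42.1 and 62.2 over 26.5 and 25.6 CPM, did not pass (adjusted p = 0.141).

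**Figure D3:**
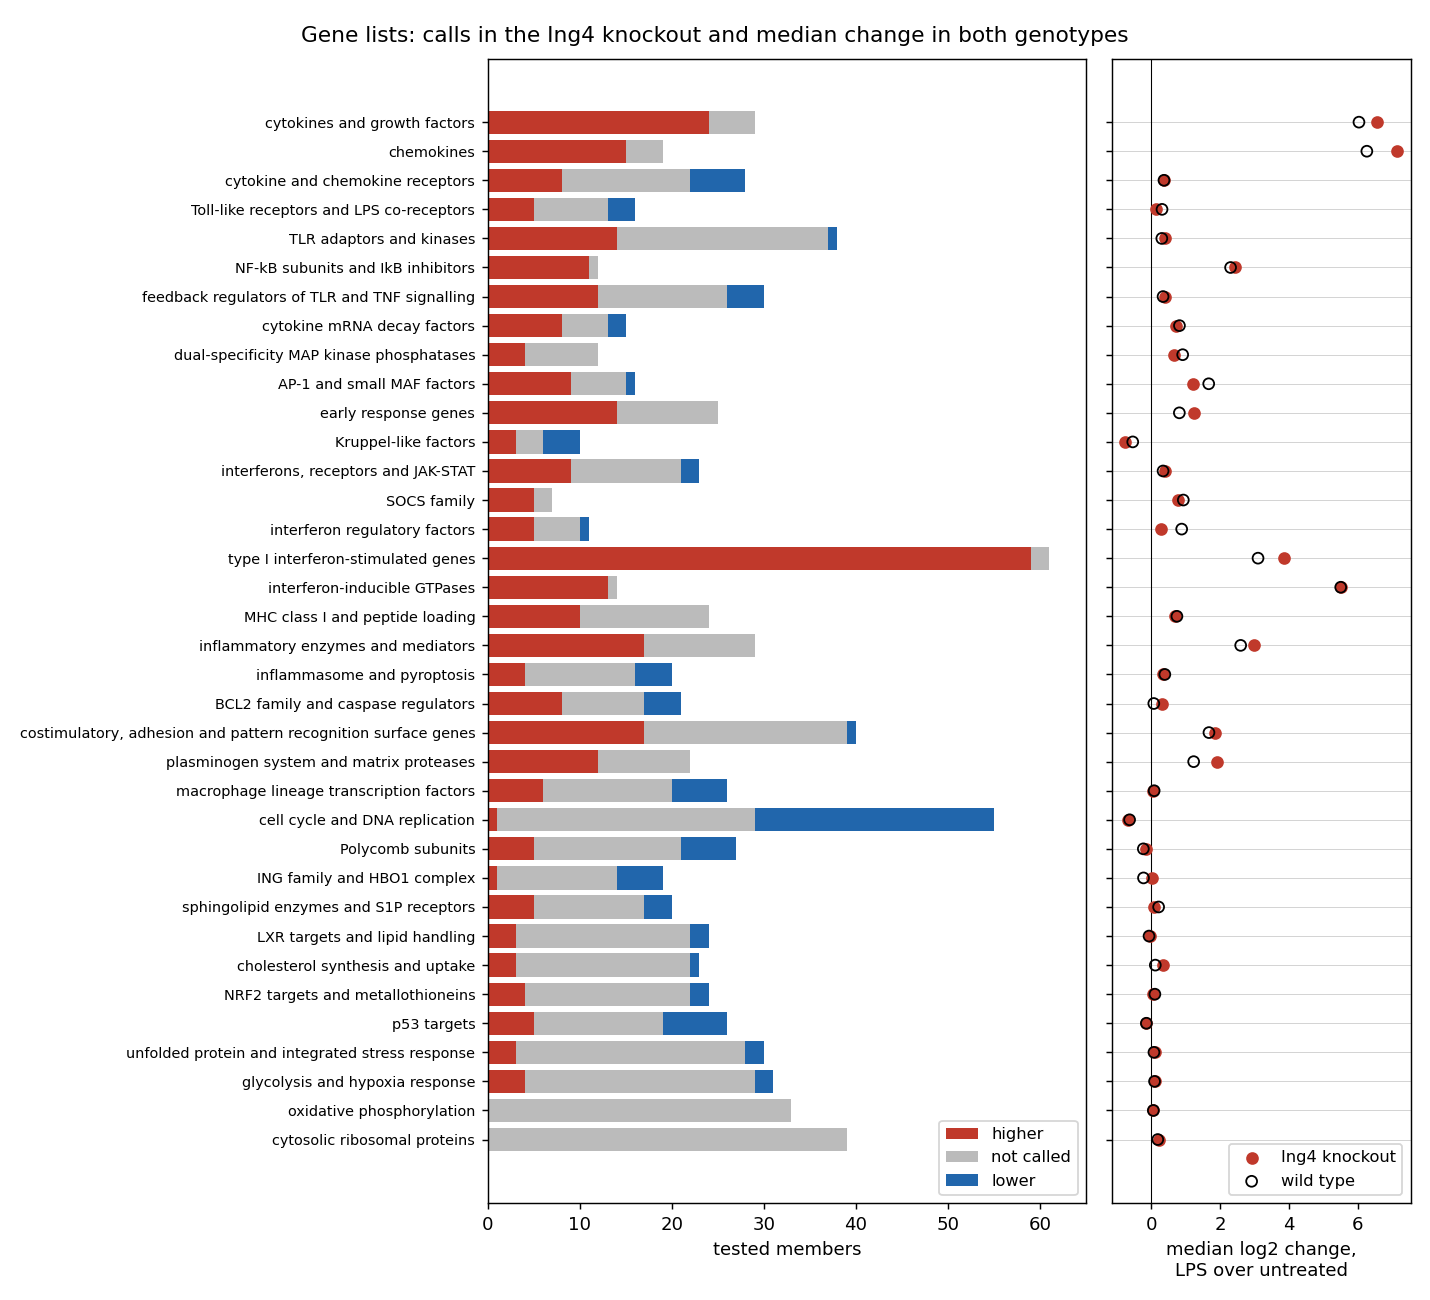
Left, the number of tested members of each gene list called higher (red), not called (grey) or lower (blue) in the Ing4 knockout; right, the median log2 change with LPS of the same members in the knockout (filled) and in wild type (open). The type I interferon-stimulated genes have 59 of 61 members higher, the cell cycle list has 26 of 55 lower, and the oxidative phosphorylation and ribosomal lists have none called.

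Enzymes of inflammation followed, with 17 of 29 higher, 0 lower and a median log2 change of 2.98. Acod1, which makes the antibacterial metabolite itaconate, rose from 17.4 and 2.49 to 7473 and 4444 CPM (log2 9.23 ± 1.26, adjusted p = 0.00271), the second largest gain in CPM. Nos2, the inducible nitric oxide synthase gene, went from 0.0427 and 0.226 to 126 and 101 CPM (log2 9.69, adjusted p = 0.00155). Slc7a2, a transporter of arginine, the substrate of that enzyme, went from 0 counts to 13.5 and 23 CPM, at least 271-fold. Odc1, which turns ornithine into polyamines, rose from 170 and 206 to 1769 and 1926 CPM (log2 3.30), and the mitochondrial superoxide dismutase gene Sod2 from 119 and 93.9 to 770 and 633 CPM (log2 2.72). Ptges, for prostaglandin E synthase, rose by log2 3.28, and the iron-siderophore binder Lcn2 went from 1 count in each untreated library to 13.2 and 9.12 CPM, a raw ratio of 258 (71.0 to 2137).

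The inflammasome list split, with 4 of 20 higher and 4 lower (2 lower without the first LPS library). Its share called was 40%, against 21.0% of all tested genes. Nlrp3, the sensor that is limiting in unprimed macrophages, rose from 78.6 and 87.4 to 1599 and 1486 CPM (log2 4.22 ± 0.227, adjusted p = 6.03e-05), and Casp4, the receptor of cytosolic LPS, from 9.49 and 10.6 to 77.5 and 91.5 CPM (log2 3.07). Casp1 was at 73.4 and 83.7 over 47.7 and 52.7 CPM and did not pass (adjusted p = 0.107). P2rx7, the ATP channel that triggers Nlrp3, fell from 50.8 and 49.1 to 10.2 and 19.2 CPM (log2 -1.77), and Nlrp1b fell by 0.94 on the log2 scale. Of 21 BCL2 family and caspase regulators 8 were higher, 4 lower and 9 not called, with a median log2 change of 0.33. The change was above 0 in 11 of them and below 0 in 10. The death inhibitors Cflar, Bcl2l1 and Bcl2a1d rose to 583 and 958, 253 and 265, and 114 and 94.8 CPM, from 91.0 and 142, 57.1 and 66.5, and 6.07 and 6.28 CPM. The Bcl2a1 copies are near-identical, so their separate counts are uncertain.

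At the cell surface, 17 of 40 costimulatory, adhesion and pattern recognition genes were higher and 1 lower. The costimulatory receptor gene Cd40 rose from 1.11 and 0.723 to 241 and 326 CPM (log2 8.26 ± 0.615, adjusted p = 0.000217), and Cd83, a marker of mature antigen-presenting cells, from 49.9 and 64.2 to 463 and 962 CPM (log2 3.64). The integrin ligand Icam1 rose from 102 and 85.4 to 730 and 1021 CPM (log2 3.23), the glycolipid receptor gene Clec4e from 123 and 206 to 2311 and 3130 CPM (log2 4.05), and the fatty-acid receptor gene Gpr84 from 57.1 and 33.2 to 812 and 808 CPM (log2 4.16). Cd69, an activation antigen, had 0 counts without LPS and 5.92 and 7.17 CPM with it, at least 98.6-fold higher. The heparan sulfate carrier Sdc4 rose from 138 and 96.8 to 2295 and 3445 CPM (log2 4.61). Cd86 was all but absent, with 0 counts without LPS and 0.0933 and 0.109 CPM with it. Of 22 plasminogen and matrix protease genes 12 were higher and 0 lower, and 7 were higher without the second LPS or the second untreated library. Plaur, the urokinase receptor gene, rose from 55.3 and 106 to 702 and 780 CPM (log2 3.20), and the protease inhibitor Serpinb2 from 0 counts to 1.03 and 3.86 CPM, at least 35.4-fold.

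Further genes with the largest rises by log2 change were Edn1, Lipg and Vmn2r90. Edn1, which encodes the vasoconstrictor endothelin-1, went from 0 counts to 27.2 and 2.28 CPM, at least 238-fold higher, with an adjusted p of 0.0145 that rose to 0.0813 and 0.0737 without the first and second untreated library. Lipg, for endothelial lipase, went from 0 counts to 13.7 and 2.23 CPM (at least 128-fold). Vmn2r90, annotated as a pheromone receptor of a large gene family whose copies share sequence, went from 0 counts to 8.07 and 7.71 CPM (at least 120-fold), and its identity from counts is uncertain. By CPM gained, Tnfaip2, a TNF-inducible gene, rose from 110 and 144 to 2287 and 3772 CPM (log2 4.58), and the cytoskeletal actin gene Actb, often used as a reference in qPCR, rose from 3403 and 2479 to 7115 and 5646 CPM (log2 1.12 ± 0.294, adjusted p = 0.0298). The Actb call was lost without the first LPS library (adjusted p = 0.114), the first untreated one (0.0551), the second untreated one (0.158) or any of the 4 wild-type libraries (0.0528 to 0.0640).

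Genes with large falls included receptors and regulators of signalling. Cxcr4, the CXCL12 receptor (chromosome 1, 128588199 to 128592293), fell from 24.4 and 125 to 0.606 and 2.61 CPM (log2 -5.56 ± 1.10, adjusted p = 0.0116), the largest fall of a named gene. Its untreated libraries differed widely, and the call was lost without the first (adjusted p = 0.106) or second LPS library (0.0544). S1pr1, the receptor through which sphingosine 1-phosphate guides cells out of tissues, fell from 14.6 and 28.1 to 0.420 and 1.25 CPM (log2 -4.69 ± 0.534, adjusted p = 0.000813). Vash2, an angiogenesis-related tubulin carboxypeptidase gene, fell from 2.99 and 4.07 to 0.0466 and 0.109 CPM (log2 -5.44). Smad6, an inhibitor of BMP signalling, fell from 2.74 and 6.74 to 0.0933 and 0.326 CPM (log2 -4.50), with an adjusted p of 0.0533 without the first LPS library. Klhl6, an adaptor of a ubiquitin ligase in lymphoid cells, fell from 62.2 and 83.2 to 2.52 and 4.62 CPM (log2 -4.36), and Fam13c from 108 and 35.9 to 4.01 and 2.77 CPM (log2 -4.40). Arrdc3, an arrestin-like regulator of receptor trafficking, and the ubiquitin ligase gene Rnf144b fell by 3.56 and 3.57 on the log2 scale. The diacylglycerol kinase gene Dgkg (log2 -4.86) lost its call without either LPS library (adjusted p = 0.0902 and 0.141) or the first untreated one (0.214), and at 0.0545 and 0.0547 without either wild-type LPS library.

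Macrophage lineage factors moved both ways, with 6 of 26 higher and 6 lower and a median log2 change of 0.07. Their share called was 46.2%, against 21.0% of all tested genes. Tfeb, the regulator of lysosome biogenesis, fell from 33.3 and 19.1 to 2.05 and 2.55 CPM (log2 -3.51 ± 0.338, adjusted p = 0.000403), while its relative Tfec rose from 17.3 and 16.7 to 58.9 and 62.8 CPM (log2 1.84 ± 0.183, adjusted p = 0.000472). The nuclear receptor partner Rxra fell from 39.7 and 52.0 to 11.2 and 10.3 CPM (log2 -2.09), and the haem-sensing repressor gene Bach1 from 51.8 and 55.3 to 17.4 and 20.2 CPM (log2 -1.51). Spi1, for the master regulator PU.1, rose from 299.9 and 262 to 610 and 597 CPM (log2 1.10 ± 0.196, adjusted p = 0.00582).

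The largest loss in CPM was that of Csf1r, the receptor for the macrophage growth factor CSF1, from 1799 and 2315 to 778 and 1197 CPM (log2 -1.06 ± 0.276, adjusted p = 0.0290). The call was lost without the first LPS library (adjusted p = 0.136), the second untreated one (0.123) or either untreated wild-type library (0.0538 and 0.0532). Sirpa, the receptor that reads the CD47 signal on healthy cells, fell from 839 and 1138 to 261 and 362 CPM (log2 -1.67 ± 0.251, adjusted p = 0.00286). Ccnd1, the G1 cyclin gene, fell from 736 and 772 to 299 and 312 CPM (log2 -1.30), and the RNA editing enzyme gene Apobec1 from 479 and 795 to 220 and 274 CPM (log2 -1.37, adjusted p = 0.0549 without the first LPS library). The RAS activator Rasgrp3 fell from 452 and 504 to 134 and 179 CPM (log2 -1.61), and Lhfpl2 from 218 and 374 to 16.7 and 38.0 CPM (log2 -3.44).

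Cell cycle genes that passed the test were lower with 1 exception, and about as many did not pass. Of 55 tested cell cycle and DNA replication genes 26 were lower, 1 was higher and 28 were not called, against 9.71% lower among all tested genes, and their median log2 change was -0.66. Without the second untreated library 15 were called lower, and 4 in the fit to all 12 libraries. E2f2, an activator of S-phase genes, fell from 61.7 and 52.1 to 5.32 and 6.73 CPM (log2 -3.24 ± 0.195, adjusted p = 6.91e-05). Cdc6, which loads the replicative helicase, fell from 59.2 and 58.4 to 16.4 and 15.7 CPM (log2 -1.88 ± 0.170, adjusted p = 0.000307). The nucleotide salvage kinase gene Tk1, the mitotic factor gene Foxm1 and the maintenance methylation factor gene Uhrf1 fell by 1.75, 1.33 and 1.5 on the log2 scale. The gene called higher was Cdk6, from 125 and 110 to 316 and 418 CPM (log2 1.64). Ccne2, at 14.8 and 31.9 CPM with LPS against 43.6 and 70.1, did not pass (adjusted p = 0.0761). Of 26 p53 targets 5 were higher and 7 lower (4 lower without the second untreated library). The share called was 46.2%, against 21.0% of all tested genes. Cdkn1a, the gene of the cell cycle inhibitor p21, rose from 276 and 297 to 677 and 780 CPM (log2 1.35 ± 0.219, adjusted p = 0.00395), whereas Sesn1 and Trp53inp1 fell by 2.79 and 3.17 on the log2 scale.

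Chromatin regulators close to ING4 were examined for their own response. Of 19 ING family and HBO1 complex genes 1 was higher and 5 lower, with a median log2 change of 0.01. In all 31.6% were called, against 21.0% of all tested genes (11.3% higher and 9.71% lower). Without the first LPS library or either untreated one 3 were called lower. The JADE scaffolds, which build HBO1 complexes, went opposite ways: Jade1 fell from 53.1 and 44.1 to 9.65 and 10.3 CPM (log2 -2.29 ± 0.264, adjusted p = 0.000825), and Jade2 rose from 57.7 and 62.8 to 202 and 161 CPM (log2 1.59 ± 0.185, adjusted p = 0.000846). Ing1 fell from 28.9 and 28.6 to 14.6 and 13.4 CPM (log2 -1.04 ± 0.156, adjusted p = 0.00286). Ing2 (log2 -0.89) and the complex subunit Meaf6 (log2 -0.68) also fell, but each of these 2 calls was lost without any of the 4 knockout libraries (adjusted p between 0.0536 and 0.109). The acetyltransferase gene Kat7 itself was at 115 and 92 CPM over 137 and 120 (adjusted p = 0.248). Of 27 Polycomb subunits 5 were higher and 6 lower (40.7% called, against 21.0% of all tested genes). However, 2 to 3 were higher without either untreated or the first LPS library, and 3 were lower without the first untreated or the second LPS library. The chromobox genes Cbx2, Cbx6 and Cbx8 fell by 3.24, 1.73 and 2.56 on the log2 scale, Cbx2 from 10.8 and 8.45 to 0.840 and 1.19 CPM, and Jarid2, which recruits the methyltransferase complex, rose by log2 1.31.

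Among the metabolic and stress lists, 40% of the sphingolipid genes and 25% of the NRF2 targets were called, against 21.0% of all tested genes. The shares of the LXR (20.8%), glycolysis (19.4%), cholesterol (17.4%) and unfolded protein lists (16.7%) were at or somewhat below that of all genes. Of 31 glycolysis and hypoxia genes 4 were higher and 2 lower: the glucose transporter gene Slc2a1 rose from 109 and 108 to 357 and 408 CPM (log2 1.81), and Hk2, Pfkfb3 and Hif1a rose by log2 1.58, 1.12 and 1.04. Of 24 NRF2 targets and metallothioneins 4 were higher and 2 lower, with the cystine transporter gene Slc7a11 going from 25.2 and 42.8 to 250 and 314 CPM (log2 3.05) and the autophagy receptor gene Sqstm1 from 373 and 499.5 to 1192 and 1672 CPM (log2 1.71). Of 20 sphingolipid genes 5 were higher (2 without the first untreated library) and 3 lower, among them the ceramide kinase gene Cerk, which fell by 1.68, and the ceramide synthase gene Cers6, which rose by 1.46 on the log2 scale. Among 24 LXR targets and lipid-handling genes 3 were higher and 2 lower, among 23 cholesterol genes 3 and 1 (0 or 1 higher without the first LPS library or any untreated library of either genotype), and among 30 unfolded protein and stress response genes 3 and 2 (6 higher without the second LPS library), where Herpud1 rose by log2 1.76 and the stress kinase gene Eif2ak3 fell by 1.02. None of 33 oxidative phosphorylation genes and none of 39 cytosolic ribosomal protein genes was called, with medians of 0.05 and 0.22. The log2 change was nevertheless above 0 in all 39 ribosomal genes and in 23 of the 33 oxidative phosphorylation genes. The cause of this shared sign was not tested.

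The wild type served to ask which of the changes in the Ing4-/- line it shared. In wild type 1922 genes were called (15.3%), 1050 higher (8.38%) and 872 lower (6.96%). Without 1 of the 4 wild-type libraries 765 to 1266 genes were called there. Of the genes called in either genotype 1771 were called in both, 67.3% of the knockout's calls and 92.1% of those of wild type, and all 1771 had the same sign. Among the 2632 genes called in the knockout, 2629 had the same sign in wild type, compared with 82.8% of the 9897 genes that were not called. The 3 exceptions (Gm26549, Nxph3 and 9130008F23Rik) had mean levels of at most 2.50 CPM in every group. Genes called higher in the knockout had a median log2 change of 1.53 there and 1.28 in wild type, a comparison in which choosing on the knockout raises its own median. Genes called higher in wild type had medians of 1.70 in wild type and 1.87 in the knockout. Across the 12529 genes, which are not independent replicates, the log2 changes had r = 0.921.

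**Figure D4:**
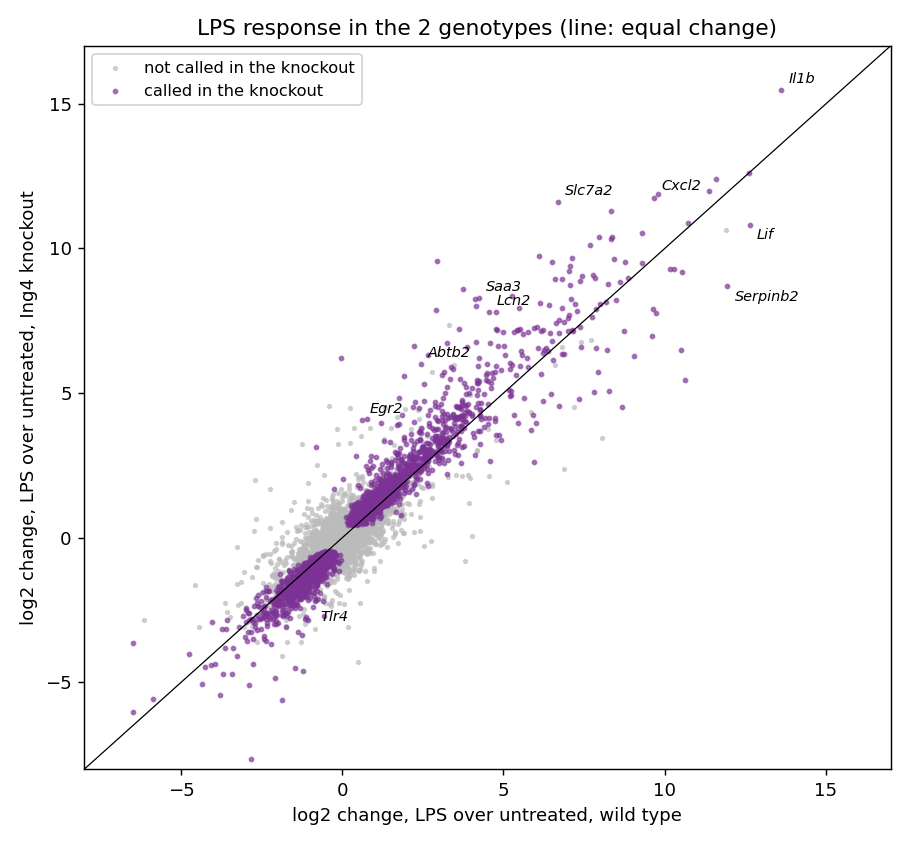
Log2 change with LPS in the Ing4 knockout (vertical axis) against that in wild type (horizontal axis) for the 12529 tested genes, purple where called in the knockout, with a line of equal change. The points follow the line over the whole range (r = 0.921), and the labelled genes lie away from it or at its ends.

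No gene passed the test of the difference itself. The difference of the LPS responses (knockout minus wild type, on the log2 scale) was called for 0 of 12529 genes (0.0%) in edgeR's test, with a smallest adjusted p of 1. Its unadjusted p was below 0.05 for 136 of the 12529 genes. That is a smaller share than the 0.05 that p-values would give with no difference at all. DESeq2 called 3 genes. The 861 genes called in the knockout and not in wild type are therefore not shown to respond in the knockout alone. The median standard error of the difference over all tested genes was 0.33, which limits what 2 libraries a group can show. The 3 genes that DESeq2 called were Egr2 (adjusted p = 0.00049), Kctd12 and Trim36 (both adjusted p = 0.039).

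The genes nearest to a difference are given with their values. Egr2, an early growth response factor, stood in the knockout at 2.44 and 1.49 CPM without LPS and 19.8 and 46.9 with it, and in wild type at 12.3 and 8.70 and then 19.9 and 12.6 CPM. Its log2 change was 4.08 in the knockout and 0.62 in wild type, a difference of 3.45 (95% interval 1.96 to 4.95, unadjusted p = 0.000706). The untreated knockout libraries lay below the untreated wild-type ones. Trim36, a ubiquitin ligase gene, changed by 2.82 and 0.89 (difference 1.93, interval 1.13 to 2.72), with knockout libraries at 3.68 and 3.53 and then 21.2 and 29.8 CPM and wild type at 4.82 and 6.35 and then 10.8 and 9.94 CPM. For Trim36 it was the LPS libraries that lay apart between genotypes. Abtb2 and Lcn2 had differences of 3.57 (1.92 to 5.21) and 3.26 (1.74 to 4.78), and in both the knockout started lower: Lcn2 was at 0.731 and 0.710 CPM in untreated wild type against 0.0427 and 0.0452, and reached 14.0 and 20.0 CPM with LPS in wild type against 13.2 and 9.12. Kctd12 had a difference of 2.10 (1.03 to 3.17).

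In the other direction the 5 genes with the smallest unadjusted p had differences of -1.14 to -0.62. Furin, a protease that matures many secreted proteins, rose in the knockout from 90.5 and 99.1 to 190 and 138 CPM and in wild type from 76.0 and 68.1 to 260 and 246 CPM, a difference of -1.02 (-1.62 to -0.43, unadjusted p = 0.00407). The adaptor gene Bcar3 stood at 90.2 and 93.4 CPM with LPS in the knockout and at 150 and 152 in wild type, with untreated levels of 84.0 and 63.3 and of 63.1 and 64.3 CPM (difference -0.93, -1.46 to -0.40). Dusp6, a phosphatase of ERK kinases, had log2 changes of -0.37 in the knockout and 0.77 in wild type (difference -1.14, -1.88 to -0.40), neither of which passed the test. Bach1 and Prkch had differences of -0.72 and -0.62. All 10 of these genes had an adjusted p of 1 for the difference in edgeR.

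For the best-known LPS genes the intervals of the difference show what could and could not be told. Tnf had a difference of 0.31 (-0.91 to 1.54), Cxcl10 of 0.20 (-1.52 to 1.92), Ifit1 of 1.23 (-0.72 to 3.17) and Nos2 of 2.56 (-1.25 to 6.37), all with intervals across 0. Cd14 had the narrowest of these intervals, 0.16 (-0.57 to 0.88). For Ccl4 (1.73, 0.58 to 2.87), Cxcl2 (2.10, 0.45 to 3.75) and Il1b (1.84, 0.26 to 3.42) the interval lay above 0 before adjustment, and in each the untreated knockout libraries were lower than the untreated wild-type ones while the LPS libraries overlapped with those of wild type (Ccl4 and Cxcl2) or lay below them (Il1b). Ccl4 was at 33.9 and 17.5 against 101 and 84.2 CPM without LPS. Il1b had 1 count in each untreated knockout library against 5 and 4 in untreated wild type, so its difference rests on counts near 0. For Tlr4 (-1.49, -2.65 to -0.34) the interval lay below 0 before adjustment, with LPS levels of 14.5 and 24.5 CPM in the knockout and 35.7 and 50.6 in wild type. None of these passed the adjusted test.

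**Figure D5:**
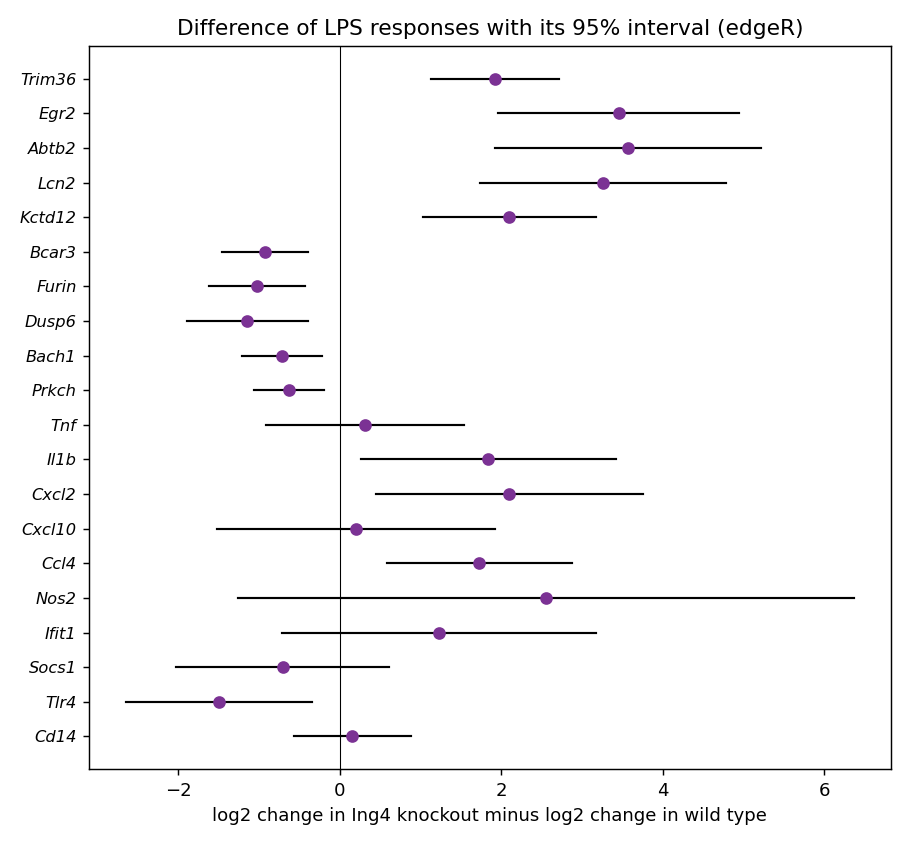
Difference of the log2 change with LPS, knockout minus wild type (points), with its 95% interval (lines), for the 10 genes with the smallest unadjusted p in either direction and 10 known LPS response genes. Egr2, Abtb2 and Lcn2 lie furthest to the right, and all 20 had an adjusted p of 1.

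For the gene groups the difference is given as counts of its sign, with no test. Of the 61 type I interferon-stimulated genes 53 had a larger log2 change in the knockout, against 50.8% of all tested genes, with medians of 3.85 and 3.11. Their mean log2(CPM + 1) was lower in the untreated knockout libraries (3.90 and 3.50) than in untreated wild type (4.31 and 4.36), while the LPS libraries overlapped: 7.48 and 7.45 in the knockout lay between 7.01 and 8.11 in wild type. Of the 14 GTPases 12 had a larger change in the knockout, with medians of 5.53 and 5.51, and so had 20 of the 23 cholesterol genes. Of the 33 oxidative phosphorylation genes 8 did. Medians were 6.57 and 6.04 for cytokines, 7.14 and 6.27 for chemokines, 2.43 and 2.31 for NF-kB and IkB genes and -0.66 and -0.62 for the cell cycle list. Members of a list share libraries and regulators, so these counts are descriptions.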

How the data were processed

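RNA from the 8 libraries analysed was selected for poly(A), made into libraries with a stranded kit and read as single ends of 75 bases, per the labels' protocols. The authors deposited raw read counts per Ensembl gene, unscaled and with replicates separate. FastQC, HISAT, StringTie, HTSeq and DESeq2 are named in the submitters' processing notes, with no versions or strand setting. The notes also name the human build GRCh38, and the treatment protocol names HEK293T, a human line. The gene identifiers are those of mouse. In a table the authors deposited, 819 of 867 genes (94.5%) have the coordinates of GRCm38 (GENCODE M21), the build used here. Antisense and overlapping genes may share reads.

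Counts were tested in R 4.3.3 with edgeR 4.0.16 (filterByExpr, TMM scaling, robust quasi-likelihood, Benjamini-Hochberg over 12529 genes, called at 0.05) in 1 model of 4 groups of 2 libraries. All adjusted p-values in the text are from this test unless another fit is named. Standard errors and 95% intervals come from the log2 change and its F statistic. CPM are counts scaled by the TMM effective library size. Genes at 0 counts in a group got a bound from 3 counts over the group, and genes with 1 to 3 counts an exact binomial interval, both covering counting error only. The biological coefficient of variation was 0.214. Replicates were not repeat deposits (chi-square per degree of freedom 23.3 to 75.3). DESeq2 1.42.0, other scalings, filters, library sets, a replicate block and leaving out each library were the alternatives, and the script was tested on simulated data. The members, the 41 gene lists (993 symbols) and the tests were chosen with earlier results of these data known. Named were Ing4, Socs1 and 11 anchor genes, the 15 largest rises and falls and the 10 largest gains and losses in CPM among called genes whose higher group averaged 2 CPM or more, with groups that did not overlap and no clone or predicted name, up to 6 called and 3 uncalled members of each list, and the 5 genes nearest to a called difference in each direction. A few genes that met this rule are not reported here.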

Additional observations from a re-analysis of the deposited data

How the results depend on the processing

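The calls in the Ing4 knockout were recomputed under 19 alternatives. With DESeq2, size-factor scaling, no filter, a mean of at least 5 CPM, the 11-library fit and the fit to the 4 libraries of the contrast, the counts of higher and lower genes stayed within 1.5 times of the reported ones. Upper-quartile scaling did too, and moved the split as given above. At an adjusted p of 0.01, 785 genes were higher and 528 lower (874 called in wild type). Against a fold of 1.5 with glmTreat they were 771 and 463 (923), and in the fit to all 12 libraries 604 and 420 (369), of which 601 and 419 were among the reported genes. Leaving out 1 library of the 8 gave 871 to 1313 higher, 650 to 1103 lower and 765 to 2065 called in wild type. The difference of the responses, which the fit to 4 libraries cannot test, had 0 calls in the others of these fits except DESeq2 (3) and the fit without a filter (39). Ing4 ranged from -1.67 to 0.66 on the log2 scale and its sign turned without the second untreated knockout library. The cause of these changes was not tested.

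Replicate numbers are shared by the groups in the labels, which do not say what they mark. With a replicate block for each genotype 2896 genes were higher and 2699 lower in the knockout, 4828 were called in wild type, and 1 gene (Saa3) had a called difference of responses. The differences between replicates 1 and 2 without and with LPS had r = 0.614 in the knockout and 0.462 in wild type over 12529 genes, a hint from the data and not from the design.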
